A study of Arabidopsis thaliana with 9 samples.

Results

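The beta-tubulin genes of Arabidopsis thaliana were described in dark-grown seedlings of the mutants cop1-4 and spaQ and of the wild type Col-0. The family consisted of TUB1 to TUB9, chosen by their 9 locus identifiers among the 33655 features of a table of raw RNA-seq read counts. Each genotype had 3 libraries, and the mutants were in the Col-0 background. COP1 is a RING-type ubiquitin ligase that works with SPA proteins to hold back light responses in darkness. The allele cop1-4 is known as a weak, partly functional one. The name spaQ usually stands for a quadruple mutant of SPA1, SPA2, SPA3 and SPA4, but the labels give neither its alleles nor the loci. All genotypes shared one regime: 3 days of stratification at 4 °C, 3 h of white light, 21 h of darkness, a far-red treatment given as 2000 μmol m-2, and 2 more days of darkness. Seedlings were harvested at an age of 3 days, and the labels name no organ. Fewer cells of a type and less RNA per cell cannot be told apart in such samples.

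Beta-tubulin pairs with alpha-tubulin to form the dimers from which microtubules are built. In elongating hypocotyl cells the cortical microtubules lie under the plasma membrane and guide the enzyme complexes that lay down cellulose. A seedling kept in darkness elongates its hypocotyl strongly, whereas light slows that growth, and cop1 and spa mutants are short in darkness. TUB1 is known as a gene whose transcript falls in light through phytochrome, TUB6 is often used as a reference gene in quantitative PCR, and TUB9 is known for its transcript in pollen. TUB8 is known for transcripts in vascular tissue.

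All 9 members lay on 4 of the nuclear chromosomes of the RefSeq TAIR10.1 assembly, where each symbol was found under the same locus identifier. TUB1 (AT1G75780, chr1:28451138-28453820, minus strand) and TUB5 (AT1G20010, chr1:6937719-6940832, minus strand) lay on chromosome 1, TUB7 (AT2G29550, chr2:12643917-12646057, minus strand) on chromosome 2 and TUB9 (AT4G20890, chr4:11182092-11184559, plus strand) on chromosome 4. Chromosome 5 carried TUB2 (AT5G62690, chr5:25181296-25183811, plus strand), TUB3 (AT5G62700, chr5:25184258-25186777, plus strand), TUB4 (AT5G44340, chr5:17859136-17861150, minus strand), TUB6 (AT5G12250, chr5:3960938-3963624, minus strand) and TUB8 (AT5G23860, chr5:8042853-8044934, plus strand). The coding sequences were 1335 to 1353 bases long, and the summed exons ran from 1797 bases in TUB4 to 2180 in TUB9. The annotation gives each gene 3 exons and TUB6 4.

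TUB2 and TUB3 stood apart within the family by their likeness. They were direct neighbours in tandem, with 446 bases between them, and they are known to encode the same protein sequence. Their coding sequences matched at 97.63% of positions, with 32 of 1353 bases differing, against 87.5% for TUB4 and TUB9, the next most alike of the 36 pairs, and a median of 80.44%. Their last 90 coding bases, shown because they give an impression of how few bases separate the reads of the pair, differed at 4 positions, which are written in capitals. The stretch is chr5:25183412-25183501 for TUB2 and chr5:25186337-25186426 for TUB3, plus strand, RefSeq TAIR10.1.
TUB2: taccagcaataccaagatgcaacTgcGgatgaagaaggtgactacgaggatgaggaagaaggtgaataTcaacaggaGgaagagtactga
TUB3: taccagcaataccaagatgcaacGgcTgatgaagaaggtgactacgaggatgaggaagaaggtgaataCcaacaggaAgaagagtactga
Of all windows of 50 bases in the TUB2 transcript 77.7% were found in no other member and nowhere else in the nuclear genome. For TUB3 the share was 78.0%. For windows of 100 bases the shares were 88.7% and 88.8%. The other 7 members had at least 99.8% of their windows to themselves at either length. The values of TUB2 and TUB3 are therefore uncertain where reads could be given to either, and both genes are also given as a sum.

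The 300 bases before the annotated transcript starts were read for letters bound by light-signalling factors in other promoters, since COP1 and SPA proteins act on light signalling. The motifs searched on both strands were the G-box CACGTG and the PBE box CACATG, whose reverse complement is CATGTG. The motifs differ by 1 base, so no match counts under both. At least 1 of them was found before 4 of the 9 members, against 18.9% of 27443 nuclear protein-coding genes of the same assembly. These 4 include the tandem near copies TUB2 and TUB3, which are not separate occurrences. The G-box was found before TUB7 alone, with 2 copies that began 280 and 234 bases before the start, against 7.1% of all genes. The PBE box was found before TUB2 (at 200 and 136 bases), TUB3 (at 224 and 160 bases) and TUB6 (at 73 bases), against 13.1% of all genes. TUB1, TUB4, TUB5, TUB8 and TUB9 had neither motif in this window. The windows below are shown because TUB1 had the lowest mutant levels of the family relative to Col-0, TUB2 the smallest difference in both mutants, TUB3 is its near copy, and TUB7 had the G-boxes. Motif letters are in capitals, and each sequence is written 5′ to 3′ on the strand of its gene in RefSeq TAIR10.1: chr1:28453821-28454120 (minus) for TUB1, chr5:25180996-25181295 (plus) for TUB2, chr5:25183958-25184257 (plus) for TUB3 and chr2:12646058-12646357 (minus) for TUB7.
TUB1: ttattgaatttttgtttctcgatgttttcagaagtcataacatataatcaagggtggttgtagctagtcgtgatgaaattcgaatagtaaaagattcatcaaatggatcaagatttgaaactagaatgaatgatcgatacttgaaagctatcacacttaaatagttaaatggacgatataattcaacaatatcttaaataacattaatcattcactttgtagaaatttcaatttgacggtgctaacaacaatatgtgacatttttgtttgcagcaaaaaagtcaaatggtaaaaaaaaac
TUB2: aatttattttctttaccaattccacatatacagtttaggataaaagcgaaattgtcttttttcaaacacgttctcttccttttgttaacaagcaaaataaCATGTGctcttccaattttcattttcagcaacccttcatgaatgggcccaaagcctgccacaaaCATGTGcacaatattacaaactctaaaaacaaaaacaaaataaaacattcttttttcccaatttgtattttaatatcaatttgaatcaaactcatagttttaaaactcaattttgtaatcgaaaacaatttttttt
TUB3: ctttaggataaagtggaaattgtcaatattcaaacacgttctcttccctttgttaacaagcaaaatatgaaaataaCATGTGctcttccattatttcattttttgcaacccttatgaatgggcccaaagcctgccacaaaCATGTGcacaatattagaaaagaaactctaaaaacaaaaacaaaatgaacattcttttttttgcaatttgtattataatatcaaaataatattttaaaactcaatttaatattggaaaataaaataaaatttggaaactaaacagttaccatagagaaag
TUB7: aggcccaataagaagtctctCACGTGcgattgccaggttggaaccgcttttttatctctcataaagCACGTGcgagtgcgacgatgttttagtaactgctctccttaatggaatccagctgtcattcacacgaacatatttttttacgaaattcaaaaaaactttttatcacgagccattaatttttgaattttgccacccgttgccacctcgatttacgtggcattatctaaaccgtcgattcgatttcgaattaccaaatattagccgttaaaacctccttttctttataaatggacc
The TUB2 and TUB3 windows matched at 68.4% of aligned positions and carried both PBE boxes with the same spacing. No relation between these motifs and the mutant levels given below was tested. A match of letters is a description and does not show that a factor binds there.

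The libraries held 22482588 (cop1-4 replicate 3) to 38770474 (spaQ replicate 2) counted reads, and 20779 genes passed the filter on low counts, all 9 members among them. Levels are given as CPM, the reads of a gene per 1000000 reads of a library total adjusted by TMM, which sets the median gene near a log2 fold change of 0. Replicates differed by more than counting noise, and the labels do not say whether they were sown separately, so the p-values reflect the spread among libraries alone, which may be technical. COP1 stood at 29.0 to 35.7 CPM in cop1-4, 75.1 to 83.2 CPM in spaQ and 29.7 to 34.9 CPM in Col-0. No SPA locus had its spaQ libraries below those of Col-0 (SPA1 had 37.5 to 40.1 CPM in spaQ, against 29.2 to 34.6 CPM in Col-0), and since a mutant allele can leave a counted transcript these counts do not check the labels. Markers of green leaves (RCA, LHCB1.3 and LHCA1) summed to 19682 to 22293 CPM in cop1-4, 16220.2 to 18308 CPM in spaQ and 1817 to 2202 CPM in Col-0. RCA was the largest part of this sum in the mutants, with means of 11611 CPM in cop1-4 and 13285 CPM in spaQ. Log2 fold changes of spaQ over cop1-4 were 0.19 for RCA, -1.19 for LHCB1.3 and -1.20 for LHCA1. The 5 markers of etiolated seedlings (PORA, HLS1, PIF3, PHYA and IAA19) summed to 788 to 972 CPM in cop1-4, 693 to 767 CPM in spaQ and 2022 to 2296 CPM in Col-0. In the mutants most of that sum was PHYA, with means of 793 CPM in cop1-4 and 696 CPM in spaQ, against 1044 CPM in Col-0. Log2 fold changes of the 5 ran from -5.32 (PORA) to -0.40 (PHYA) in cop1-4 and from -6.52 (PORA) to -0.58 (PHYA) in spaQ.

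TUB1 had the sharpest contrast of the family between mutants and wild type. Its level was 32.9, 33.7 and 36.7 CPM in the cop1-4 libraries and 31.5, 25.5 and 30.9 CPM in the spaQ libraries, against 205, 198 and 198 CPM in the Col-0 libraries. The 3 Col-0 libraries stood far above all 6 mutant libraries, and within each genotype the values lay close together.

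TUB8 separated all 3 genotypes. It had 121, 128 and 126 CPM in cop1-4 and 63.0, 61.5 and 61.0 CPM in spaQ, against 256, 243 and 256 CPM in Col-0. TUB4, the most abundant member, had 769, 845 and 844 CPM in cop1-4 and 528, 538 and 548 CPM in spaQ, against 957, 942 and 992 CPM in Col-0. TUB5 had 219, 268 and 283 CPM in cop1-4 and 180.3, 176 and 173 CPM in spaQ, against 477, 460.3 and 522 CPM in Col-0. For each of these 3 genes no library of one genotype overlapped with those of another. The same held for TUB1, TUB3 and TUB6, with smaller gaps between the mutants. Of all genes tested 32.4% had their cop1-4 libraries below those of Col-0 without overlap. For spaQ below Col-0 the share was 38.2%, and for spaQ below cop1-4 28.6%. In cop1-4 replicate 1 was the lowest library for all 3 genes.

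TUB6, TUB9 and TUB7 separated the wild type from both mutants, which lay near each other. TUB6 had 201, 221 and 228 CPM in cop1-4 and 187, 189 and 185 CPM in spaQ, against 509, 482 and 519.6 CPM in Col-0. TUB9 had 107, 127 and 126 CPM in cop1-4 and 117, 115 and 116 CPM in spaQ, against 282, 274 and 295 CPM in Col-0. TUB7 had 79.9, 77.2 and 75.1 CPM in cop1-4 and 73.1, 70.8 and 75.4 CPM in spaQ, against 126, 123 and 123 CPM in Col-0. The mutant libraries overlapped for TUB9 and TUB7 and, by a small margin, did not for TUB6.

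TUB2 had the smallest difference of the 9 genes in either mutant, and its tandem neighbour TUB3 a larger one. TUB2 had 186, 178 and 176 CPM in cop1-4 and 182, 166 and 185 CPM in spaQ, against 205, 197 and 195 CPM in Col-0. TUB3 had 197, 209 and 204 CPM in cop1-4 and 186, 171 and 177 CPM in spaQ, against 269, 257 and 285 CPM in Col-0. All mutant libraries of both genes lay below those of Col-0, closely so for TUB2 and with a wider gap for TUB3.

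**Figure D1:**
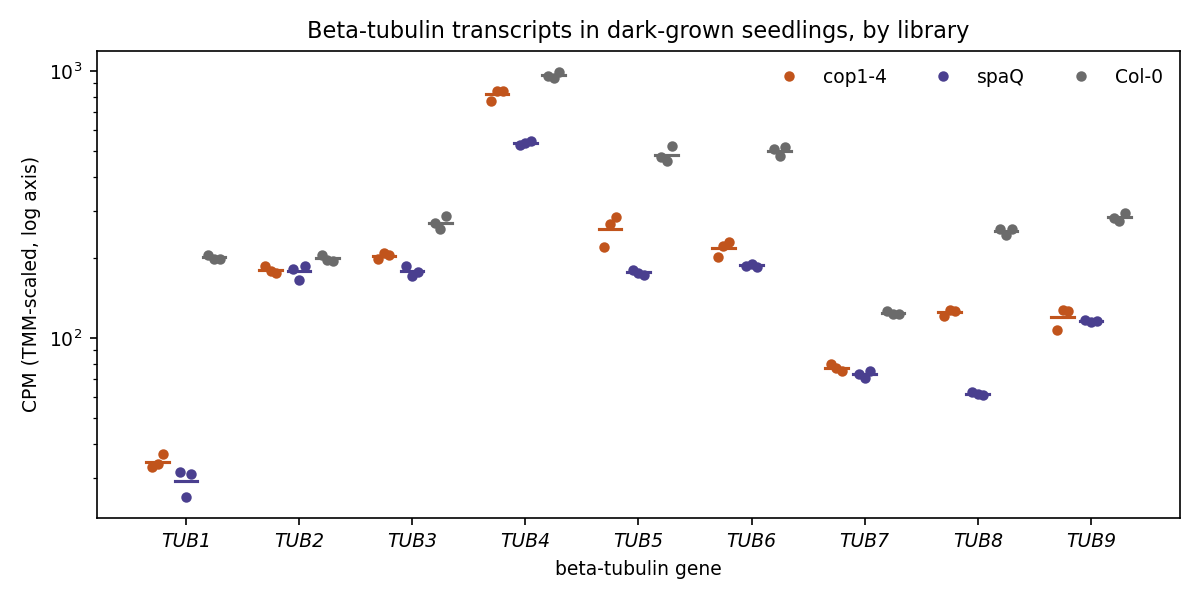
Level of each beta-tubulin gene in every library, as CPM scaled by TMM on a log axis, with cop1-4, spaQ and Col-0 from left to right for each gene. Points are libraries and bars are means of 3 libraries. TUB1 stands at 25.5 to 36.7 CPM in the mutants and 198 to 205 CPM in Col-0, while the 3 genotypes lie close together for TUB2.

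Compared per length, as CPM per kb of exons, TUB4 was the most abundant member in all 3 genotypes, at 456 ± 24.2 in cop1-4, 299 ± 5.75 in spaQ and 536 ± 14.2 in Col-0 (SD, n = 3). The order below it changed. TUB1 was the lowest of the 9 in cop1-4 (19.1 ± 1.10) and in spaQ (16.2 ± 1.83), and the third lowest in Col-0 (111 ± 2.28), above TUB2 (103 ± 2.96) and TUB7 (68.3 ± 0.881). In cop1-4 the order after TUB4 was TUB5 (127), TUB6 (110.3), TUB3 (105), TUB2 (93.3), TUB8 (67.0), TUB9 (55.1), TUB7 (42.6) and TUB1, where the libraries of TUB5 overlapped with those of TUB6 and those of TUB6 with those of TUB3. In spaQ it was TUB6 (95.1), TUB2 (92.2), TUB3 (91.4), TUB5 (87.5), TUB9 (53.2), TUB7 (40.3), TUB8 (33.2) and TUB1, and neighbours from TUB6 to TUB5 overlapped. In Col-0 it was TUB6 (256), TUB5 (241), TUB3 (139), TUB8 (135), TUB9 (130.03), TUB1, TUB2 and TUB7, and overlap was seen between TUB6 and TUB5, between TUB3 and TUB8 and between TUB8 and TUB9. TUB8 thus stood below TUB7 in spaQ and above it in cop1-4 and in Col-0.

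The first comparison asks how beta-tubulin transcripts of a dark-grown seedling depend on COP1. In cop1-4, 8 of the 9 genes fell and 0 rose relative to Col-0, where 30.3% of all genes tested were called lower. TUB1 fell by 2.54 on the log2 scale, a level 5.83-fold lower, with an SE of 0.092 and a Benjamini-Hochberg adjusted p of 2.39e-12 over all genes in the quasi-likelihood test of edgeR. Of all genes tested 2.44% had a lower log2 fold change than TUB1. With TUB9 (-1.24), TUB6 (-1.22) and TUB8 (-1.01), 4 members fell at least 2-fold, where 11.7% of all genes did. TUB8 lay at that limit, and 3 members were past it when any 1 of these libraries was left out: replicate 1 of cop1-4 and replicates 1 and 3 of Col-0. TUB5 (-0.92), TUB7 (-0.68) and TUB3 (-0.41) fell by less. The smallest call was that of TUB4, which fell by 0.23 (SE 0.077, adjusted p = 0.0151 in the same edgeR test).

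TUB2 was the member that was not called in cop1-4. Its log2 fold change was -0.14 with a 95% interval of -0.31 to 0.02 (adjusted p = 0.110, edgeR), an interval that includes 0. The 3 cop1-4 libraries lay below the 3 Col-0 libraries for all 9 genes, a pattern shown by 32.4% of genes tested. The median over the members was -0.92, against 0.01 over all genes. The TUB4 call was lost without Col-0 replicate 3 (-0.21, adjusted p = 0.0512) or without cop1-4 replicate 1 (-0.19, adjusted p = 0.0584, same test). Library totals without TMM moved the median gene to -0.31 in this comparison and turned no member's direction, so the values here are relative to that median.

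The second comparison puts the same question to the SPA proteins, as far as the spaQ label holds. In spaQ, 8 of the 9 genes fell and 0 rose relative to Col-0, where 36.1% of all genes tested were called lower. TUB1 fell by 2.78, a level 6.86-fold lower, with an SE of 0.092 and a Benjamini-Hochberg adjusted p of 5.33e-13 in the quasi-likelihood test of edgeR, and 3.58% of genes had a lower value. TUB8, known from vascular tissue, fell by 2.02, a level 4.06-fold lower (SE 0.074, adjusted p = 1.40e-12 in the same edgeR test). With TUB5 (-1.46), TUB6 (-1.43) and TUB9 (-1.29), 5 members fell at least 2-fold, where 16.7% of all genes did. TUB4 (-0.84), TUB7 (-0.76) and TUB3 (-0.60) fell by less.

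TUB2 again missed the threshold, at -0.16 (SE 0.076, adjusted p = 0.0652, edgeR). All 3 spaQ libraries lay below all 3 Col-0 libraries for 9 of 9 genes, where 38.2% of genes did so. The median over the members was -1.29, against -0.02 over all genes and -0.39 over all genes with library totals. Both mutant comparisons used the same 3 Col-0 libraries, so their values are given side by side and not as independent evidence of one another. DESeq2 called TUB2 lower in cop1-4 (-0.16, adjusted p = 0.0410) and in spaQ (-0.17, adjusted p = 0.0309).

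**Figure D2:**
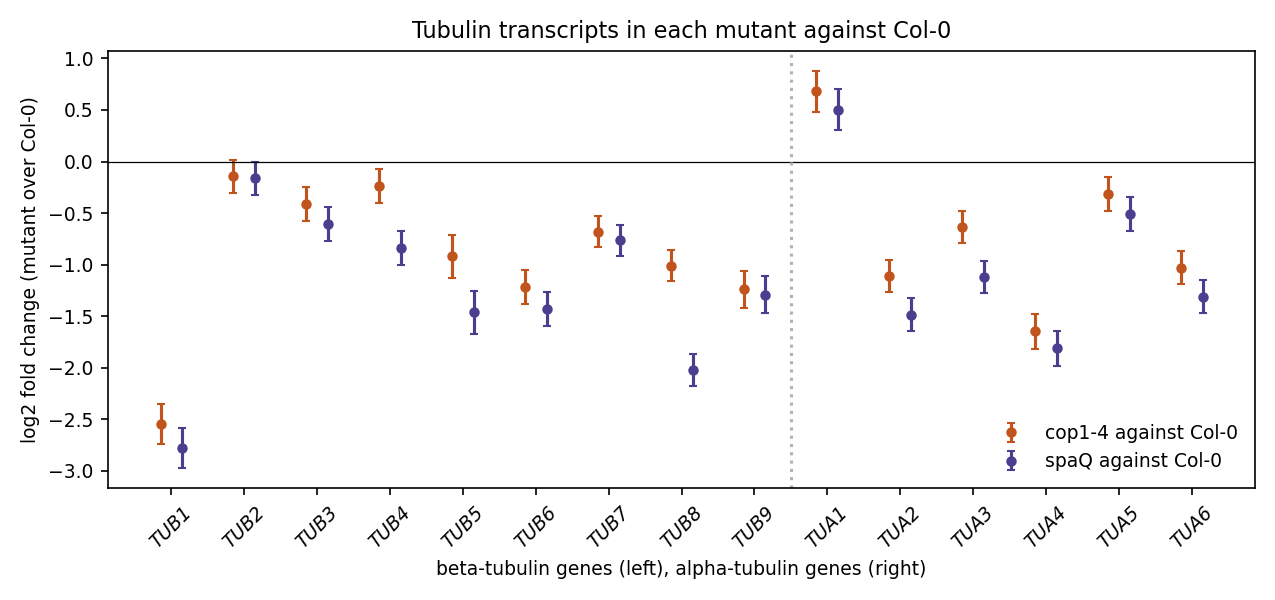
Log2 fold change of each beta-tubulin gene (left of the dotted line) and alpha-tubulin gene (right) in cop1-4 and in spaQ, each over Col-0, with 95% intervals from the fit over 9 libraries. All beta-tubulin values lie below 0, from -2.78 to -0.14, and TUA1 is the tubulin gene above 0 in both mutants.

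The direct comparison of spaQ with cop1-4 asks where the mutants differ from each other. In spaQ, 6 of the 9 genes were lower than in cop1-4 and 0 were higher, where 23.5% of all genes tested were called lower. TUB8 was 2.02-fold lower, at -1.01 on the log2 scale (SE 0.072) with a Benjamini-Hochberg adjusted p of 5.26e-08 in the quasi-likelihood test of edgeR, and was the member past 2-fold, as 5.85% of all genes were. It fell just short of 2-fold, leaving 0 members past it, with DESeq2 size factors (-0.999), with DESeq2 (-0.999) and without cop1-4 replicate 2 (-0.999). TUB4 (-0.61, adjusted p = 1.42e-05) and TUB5 (-0.54, adjusted p = 0.000293) were lower as well in the same edgeR test. The calls of TUB8, TUB4 and TUB5 were kept in all alternative settings run. TUB1 (-0.23, adjusted p = 0.0441), TUB6 (-0.21, adjusted p = 0.0349) and TUB3 (-0.19, adjusted p = 0.0473) lay just past the threshold of 0.05 of the same test.

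These 3 small calls were lost in several settings. With DESeq2 size factors in place of TMM, 3 members were called lower, and the same number without any 1 of these libraries: replicates 2 and 3 of cop1-4 and replicates 2 and 3 of spaQ. The 3 other genes were not called: TUB2 at -0.02 (95% interval -0.18 to 0.14), TUB9 at -0.05 (-0.23 to 0.13) and TUB7 at -0.08 (-0.23 to 0.07). The intervals leave differences of up to those bounds possible. The libraries of spaQ lay below those of cop1-4 without overlap for 6 members, where 28.6% of genes did, and the median over the 9 was -0.21, against -0.01 over all genes.

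**Figure D3:**
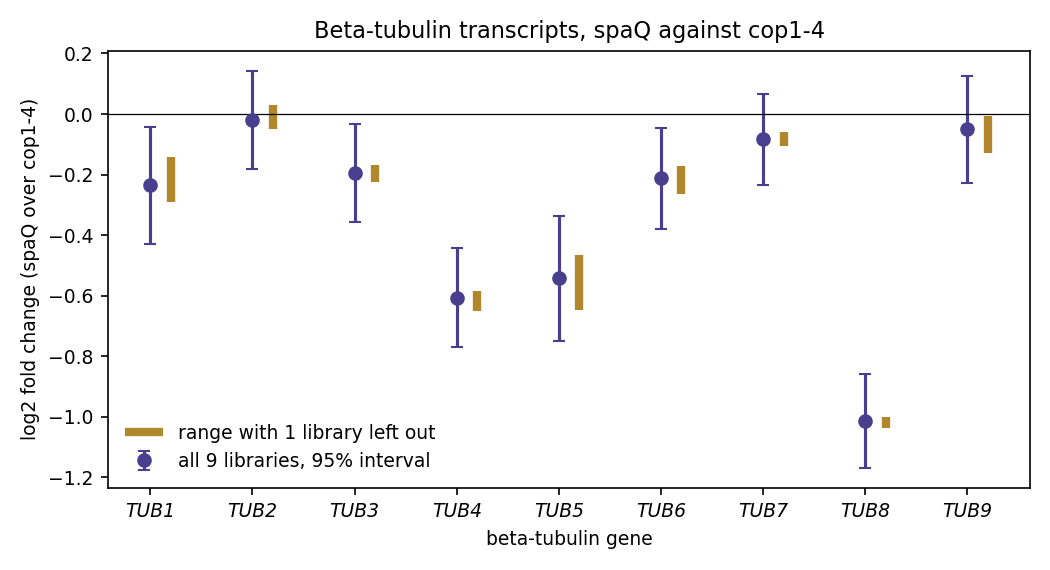
Log2 fold change of each beta-tubulin gene in spaQ over cop1-4, with the 95% interval of the fit over 9 libraries (points and bars) and the range of values when 1 library at a time is left out (brown bars). TUB8 (-1.01), TUB4 (-0.61) and TUB5 (-0.54) lie clear of 0, while the intervals of TUB2, TUB7 and TUB9 cross it.

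Secondary-wall markers of xylem were highest in Col-0 and lowest in spaQ, as were TUB8, TUB4, TUB5 and the root markers CASP1 and CASP2. CESA4, CESA7 and CESA8, the cellulose synthase subunits of that wall, summed to 64.0 to 78.1 CPM in cop1-4, 30.1 to 33.1 CPM in spaQ and 121 to 135 CPM in Col-0, and none of them was at 0. All 3 of 3 fell in cop1-4 (median -0.81) and in spaQ (median -2.01) relative to Col-0, and all 3 were lower in spaQ than in cop1-4 (median -1.12). Of all genes tested 30.3% were called lower in cop1-4 and 36.1% in spaQ relative to Col-0, and 23.5% in spaQ relative to cop1-4. Root markers summed to 250.2 to 283 CPM in cop1-4, 186 to 199 CPM in spaQ and 496 to 560.4 CPM in Col-0. Most of that sum came from CASP1, with 103 CPM in cop1-4, 44.8 CPM in spaQ and 297 CPM in Col-0 on average, and CASP2, with 44.2 CPM in cop1-4, 16.7 CPM in spaQ and 116 CPM in Col-0, both genes of the root endodermis. Of the 9 root markers 2 rose and 4 fell in cop1-4 (median -0.07), and 3 rose and 5 fell in spaQ (median -0.65), relative to Col-0. Those that rose were COBL9 (0.94) and WOX5 (2.21) in cop1-4, and SCR (0.64), COBL9 (0.40) and WOX5 (2.03) in spaQ. WOX5 averaged only 0.302 CPM in Col-0, and COBL9 in spaQ stood at 0.02 and was not called with library totals. Over all genes tested, 31.8% were called higher and 30.3% lower in cop1-4, and 35.5% higher and 36.1% lower in spaQ, shares that also stand beside the counts of the next marker list. Markers of dividing cells summed to 70.9 to 83.9 CPM in cop1-4, 63.6 to 72.2 CPM in spaQ and 91.3 to 97.8 CPM in Col-0, with 4 of 11 lower in cop1-4 (median -0.20) and 6 lower and 1 higher in spaQ (median -0.44) relative to Col-0. No root or dividing-cell marker was at 0 throughout. The part of these cell types in the tubulin results was not tested. The pollen markers VGD1 and MGH3 were at 0 in every library and the 3 pollen markers summed to at most 0.371 CPM, while TUB9 stood at 107 to 295 CPM over all libraries.

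Genes that overlap members are a further point, because no source used here states how the counting treated strand. Lengths of overlap are given for gene spans, introns included. TUB1 overlaps AT1G75770 and AT1G75785 on the opposite strand, and the longer of these overlaps is 639 bases. AT1G75785 was at 0 in all libraries. AT1G75770 stood at 4.97 to 5.16 CPM in cop1-4, 6.76 to 7.96 CPM in spaQ and 2.24 to 2.80 CPM in Col-0. TUB7 overlaps AT2G29540 on the opposite strand over 414 bases, at 3.85 to 4.11 CPM in cop1-4, 3.62 to 4.86 CPM in spaQ and 2.27 to 2.58 CPM in Col-0. TUB9 overlaps AT4G20900, which did not exceed 0.0391 CPM in any library, and TUB6 overlaps AT5G12240 on its own strand over 83 bases (16.6 to 19.9 CPM in cop1-4, 17.7 to 20.7 CPM in spaQ and 16.3 to 17.5 CPM in Col-0). Reads in the shared stretches cannot be told apart, and the partners' levels were below those of the members in all libraries.

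The balance within the tandem pair differed between genotypes. The count of TUB2 over that of TUB3 was 0.943, 0.852 and 0.859 in the cop1-4 libraries and 0.980, 0.966 and 1.05 in the spaQ libraries, against 0.762, 0.766 and 0.682 in the Col-0 libraries. Every mutant library had a higher ratio than every Col-0 library, and every spaQ library a higher one than every cop1-4 library. On the log2 scale the ratio averaged -0.18 ± 0.08 in cop1-4, -0.0036 ± 0.063 in spaQ and -0.44 ± 0.09 in Col-0 (SD, n = 3), and the differences were 0.26 for cop1-4 against Col-0, 0.44 for spaQ against Col-0 and 0.18 for spaQ against cop1-4. A two-sided exact permutation test gave p = 0.1 for each, the smallest value this test allows with 3 against 3 libraries, so it cannot reach 0.05 here. No model-based test of the ratio was run. Summed as 1 gene, TUB2 and TUB3 fell in cop1-4 (-0.29, adjusted p = 0.00305) and in spaQ (-0.40, adjusted p = 0.000177) relative to Col-0, and stood at -0.11 in spaQ relative to cop1-4 (adjusted p = 0.245, edgeR throughout). Reads given to the wrong copy would shift this ratio, which was not tested.

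The family as a pool was smaller in both mutants. The 9 genes summed to 2033 ± 105 CPM in cop1-4 and 1537 ± 20.9 CPM in spaQ, against 3282 ± 105 CPM in Col-0 (SD, n = 3), so that the pool of cop1-4 stood at 61.9% and that of spaQ at 46.8% of Col-0. As unscaled shares of all counted reads the pool took 0.192% in cop1-4, 0.139% in spaQ and 0.385% in Col-0. The 6 alpha-tubulin genes, which supply the partner of the dimer, summed to 1645 ± 29.3 CPM in cop1-4, 1329 ± 32.8 CPM in spaQ and 3214 ± 59.5 CPM in Col-0, which is 51.2% and 41.4% of Col-0. No p-value is given for these sums because the members were chosen with results known.

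The make-up of the pool shifted towards TUB4 and the tandem pair. Per length, TUB4 made up 42.4% ± 0.183 of the beta-tubulin level in cop1-4 and 37.0% ± 0.816 in spaQ, against 31.2% ± 0.291 in Col-0 (SD, n = 3). TUB2 and TUB3 took 8.71% and 9.73% in cop1-4 and 11.4% and 11.3% in spaQ, against 6.0% and 8.08% in Col-0. The share of TUB1 was 1.78% ± 0.0733 in cop1-4 and 2.01% ± 0.202 in spaQ, against 6.47% ± 0.237 in Col-0. TUB8 had 6.23% in cop1-4 and 4.10% in spaQ, against 7.83% in Col-0. The share of TUB7 was 3.98% in cop1-4, 4.98% in spaQ and 3.97% in Col-0, although its level fell in both mutants. TUB5 and TUB6 took smaller shares in the mutants, at 11.8% and 10.2% in cop1-4 and 10.8% and 11.8% in spaQ, against 14.0% and 14.9% in Col-0. A share depends on all 9 genes together, and the share of TUB4 was higher in the mutants although its level was lower there.

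**Figure D4:**
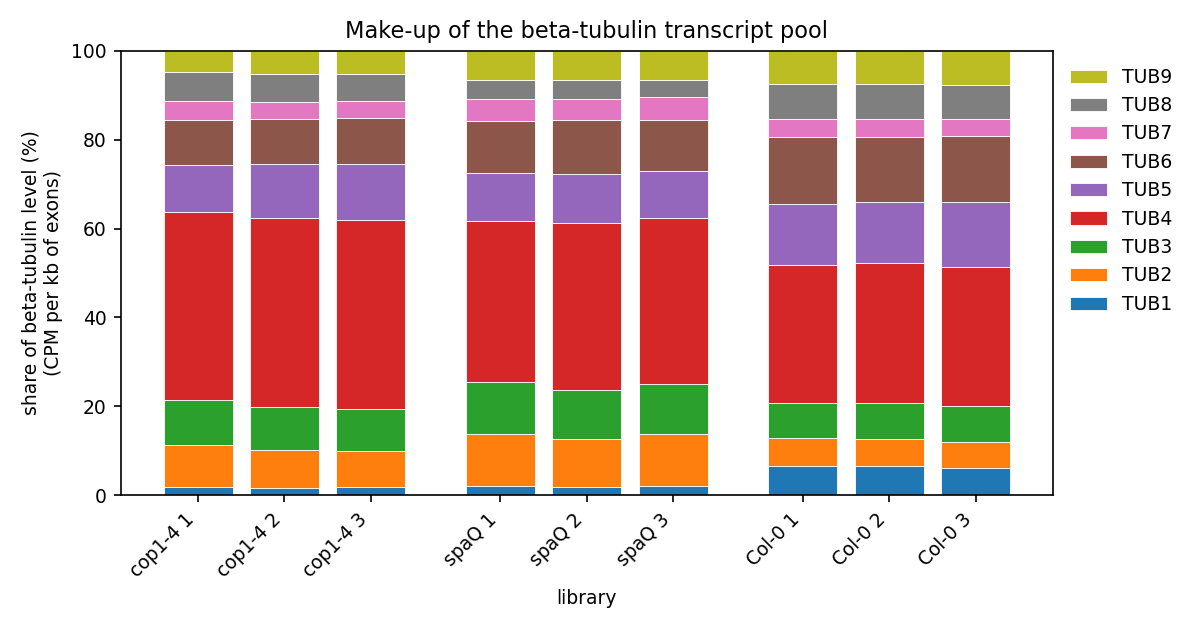
Share of each gene in the summed beta-tubulin level of each library, in percent of CPM per kb of exons, with the libraries of cop1-4, spaQ and Col-0 from left to right. TUB4 takes 42.4% in cop1-4, 37.0% in spaQ and 31.2% in Col-0 on average, and the share of TUB1 is 1.78% in cop1-4, 2.01% in spaQ and 6.47% in Col-0.

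Most alpha-tubulin genes fell as well. In cop1-4, 5 of 6 fell and 1 rose (median -0.83) relative to Col-0, where 30.3% of all genes were called lower and 31.8% higher. In spaQ, 5 fell and 1 rose (median -1.22) relative to Col-0, where 36.1% were called lower and 35.5% higher. In cop1-4 the falls were those of TUA4 (-1.65), TUA2 (-1.11), TUA6 (-1.03), TUA3 (-0.64) and TUA5 (-0.31), and in spaQ those of TUA4 (-1.81), TUA2 (-1.49), TUA6 (-1.31), TUA3 (-1.12) and TUA5 (-0.51). Reads of TUA2 and TUA4, and of TUA3 and TUA5, may be shared, since these are known as near-identical pairs. TUA1, known for its expression in pollen, rose by 0.68 in cop1-4 and 0.50 in spaQ, with 68.3 ± 4.86 CPM in cop1-4 and 60.3 ± 4.39 CPM in spaQ, against 42.6 ± 4.65 CPM in Col-0 (SD, n = 3). With library totals the TUA1 value was 0.37 in cop1-4 and 0.13 in spaQ, and the value in spaQ was not called. Between spaQ and cop1-4, 4 alpha-tubulin genes were lower, led by TUA3 (-0.49), and 2 were not called, where 23.5% of all genes were called lower.

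Genes that nucleate microtubules or fold tubulin form the next lists, whose counts stand beside 30.3% of all genes called lower and 31.8% higher in cop1-4, and 36.1% lower and 35.5% higher in spaQ. Of the 6 genes for gamma-tubulin, its complex and the preprophase band, 1 fell in cop1-4 and 2 fell and 1 rose in spaQ relative to Col-0, with medians of -0.12 and -0.19. GCP3, a subunit of the gamma-tubulin complex, fell in cop1-4 (-0.35) and in spaQ (-0.84), and TON1A, needed for the preprophase band, had a value of 0.05 in cop1-4, or -0.26 with library totals, and rose by 0.38 in spaQ. Of 11 tubulin-folding genes, which encode cofactors and prefoldin subunits, 2 fell in cop1-4 (median -0.16), while 3 rose and 1 fell in spaQ (median 0.06, or -0.31 with library totals). TFCD, a cofactor in the assembly of the dimer, fell in cop1-4 (-0.72) and in spaQ (-0.75). The prefoldin genes PFD3 and PFD4 rose by 0.49 and 0.48 in spaQ, and TFCE by 0.22, or -0.15 with library totals. With library totals none of the rises of TON1A, PFD3, PFD4 and TFCE in spaQ was called.

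The microtubule regulators are genes for proteins that bind or order microtubules. Of 21 such genes 11 fell and 1 rose in cop1-4 (median -0.57) relative to Col-0, where 30.3% of all genes were called lower and 31.8% higher. In spaQ 16 fell and 1 rose (median -0.61) relative to Col-0, where 36.1% were called lower and 35.5% higher. WDL3, known to restrain hypocotyl elongation in light, fell in cop1-4 (-1.76) and in spaQ (-1.91), with 30.5 ± 4.00 CPM in cop1-4 and 27.3 ± 0.942 CPM in spaQ, against 103 ± 10.2 CPM in Col-0 (SD, n = 3). Its relative WDL1 was the regulator that rose, by 0.92 in cop1-4 and 0.81 in spaQ. MAP70-5, known from the patterning of xylem walls, fell in cop1-4 (-1.46) and in spaQ (-3.08). PCAP2, a microtubule-destabilising protein also called MAP18, fell in cop1-4 (-0.85) and in spaQ (-2.12), as did PCAP1, also called MDP25 (-0.91 and -1.70). EB1B, which encodes a protein of microtubule plus ends, fell by 0.44 in cop1-4. Its value in spaQ was 0.22, or -0.16 with library totals, and was not called. Between spaQ and cop1-4, EB1B was higher by 0.65, and 3 regulators in all were higher and 9 lower, where 24.0% of all genes were called higher and 23.5% lower.

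**Figure D5:**
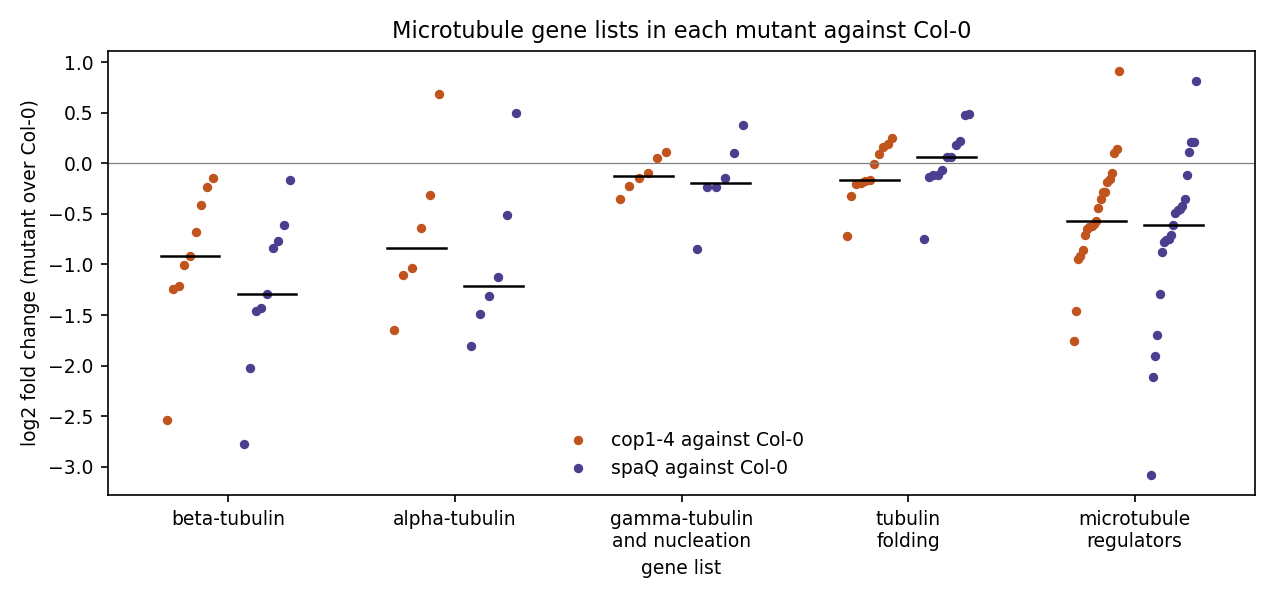
Log2 fold change of each gene in 5 microtubule gene lists in cop1-4 and in spaQ, each over Col-0, where points are genes sorted by value and black bars are medians. The medians of the beta-tubulin genes (-0.92 in cop1-4 and -1.29 in spaQ) and alpha-tubulin genes (-0.83 and -1.22) lie lowest, and those of the folding genes (-0.16 and 0.06) near 0.

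Over the 44 related genes together, 19 fell and 2 rose in cop1-4 and 24 fell and 6 rose in spaQ relative to Col-0, with medians of -0.28 and -0.39, where 30.3% and 36.1% of all genes were called lower and 31.8% and 35.5% higher. In spaQ relative to cop1-4, 14 were lower and 5 higher (median -0.12), where 23.5% of all genes were called lower and 24.0% higher. With library totals 39 of the 44 were called lower in cop1-4, where 10227 of all 20779 genes tested were called lower. With the same scaling 1 of the 44 was called higher in spaQ, where 4760 of all 20779 genes were.

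The genes most like TUB1 over the 9 libraries were sought as a description, by the root mean square difference of log2 CPM after each gene was centred on its own mean. Among tested genes whose mean log2 CPM was 3 or more, the nearest were GH9B1, an endoglucanase gene also called CEL1 (difference 0.0894), TBL38 of the family of trichome birefringence-like genes (0.0913), FLA1, which encodes a fasciclin-like arabinogalactan protein of the cell surface (0.0924), AT2G32430 (0.118) and LRX2, a leucine-rich repeat extensin gene (0.124). GH9B1 stood at 29.5 ± 0.508 CPM in cop1-4 and 24.6 ± 2.34 CPM in spaQ, against 187 ± 3.08 CPM in Col-0 (SD, n = 3). The nearest members of the family were TUB8 at 0.631 and TUB6 at 0.637, and the farthest was TUB2 at 1.19. The 9 libraries fall into 3 genotypes, so this measure rests mainly on 3 levels per gene.

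The authors' deposited tables of regulated genes hold genes past 1 on the log2 scale in either direction. The one for cop1-4 lists 5249 genes, 4 of the 9 members among them, and the one for spaQ 7261 genes, 5 members among them. The count table has 33655 features. In the authors' deposited table for cop1-4, TUB1 has -2.57, TUB9 -1.26, TUB6 -1.24 and TUB8 -1.03. In the authors' deposited table for spaQ, TUB1 has -2.78, TUB8 -2.03, TUB5 -1.47, TUB6 -1.43 and TUB9 -1.29. The listed members were the same as those called at 2-fold from the counts here, in both mutants. Both come from the same libraries, so this match is not independent evidence.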

How the data were processed

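Per the labels' protocols, total RNA was extracted with a Sigma kit and made into libraries by standard Illumina TruSeq steps. The authors deposited raw read counts per gene, and the tools listed in the submitters' processing notes are HTSeq, DESeq2, TopHat, Bowtie2 and FastQC, with the build TAIR10 and no versions. The treatment of strand and of ambiguous reads is not given in the sources used here. For each mutant the authors also deposited log2 fold changes and p-values (FDR), of which only the log2 fold changes of members are printed, from the authors' deposited tables.

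Differences were tested on the deposited counts by quasi-likelihood in edgeR 4.0.16 (R 4.3.3) after filterByExpr and TMM scaling, with 1 fit over 9 libraries (20779 genes, 6 residual degrees of freedom) and Benjamini-Hochberg adjustment over all genes, called below 0.05. SE is the log2 fold change over the root of its F statistic. The fit was tested on simulated counts in which 200 of 20546 genes were changed, in cop1-4 alone. It called 197 of these and 6 unchanged genes. So few changed genes do not test the scaling under the wide shifts seen between these genotypes. Alternatives were DESeq2 1.42.0, its size factors, library totals, no filter, 2 genotypes alone, TUB2 and TUB3 summed, a replicate block and each library left out. Depth per library limits the precision of each count. The submitters' build and the RefSeq TAIR10.1 reference used for coordinates, exon lengths and sequences were matched by locus identifier alone, since the count table holds no coordinates. All 32548 AT identifiers matched.

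The members, the related gene lists, the markers and the rule for named genes (all members, the listed genes and the 5 genes most like TUB1) were chosen with earlier results of these data known.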

Additional observations from a re-analysis of the deposited data

How the results depend on the processing

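The falls of TUB1, TUB5, TUB6, TUB7, TUB8, TUB9 and TUB3 in both mutants, and of TUB4 in spaQ, kept their direction and call in all settings run: another scaling, DESeq2, no filter, 2 genotypes alone, the replicate block and each library left out. With library totals, 4080 genes were called higher and 10227 lower in cop1-4 (6612 and 6297 with TMM) and 4760 higher in spaQ (7386), so that 28.5% of called genes were higher in cop1-4 (51.2% with TMM), 29.9% in spaQ (49.6%) and 42.5% in spaQ against cop1-4 (50.5%). Of the 44 related genes, 39 were then lower in cop1-4 (19 with TMM) and 1 higher in spaQ (6). TUB2 was called lower with library totals (-0.46 in cop1-4, -0.54 in spaQ) and with DESeq2 (-0.16 and -0.17). The sum of TUB2 and TUB3 was called lower too (-0.29 and -0.40), which is not a call of TUB2 alone. For spaQ against cop1-4, TUB1 was not called with DESeq2 size factors (-0.22), DESeq2 (-0.22) or 2 genotypes alone (-0.24). TUB3 was not called there with DESeq2 size factors (-0.18), no filter (-0.19) or the replicate block (-0.19). The sum of TUB2 and TUB3 was not called there either (-0.11). TUB6 was not called there with DESeq2 size factors (-0.20), no filter (-0.21) or the replicate block (-0.21). The number of members called lower there was 3 with DESeq2 size factors (6 with TMM). With each library left out in turn, TUB4 in cop1-4 ranged from -0.25 to -0.19. For spaQ against cop1-4, TUB1 ranged from -0.29 to -0.14, TUB2 from -0.050 to 0.031 (0.0063 without cop1-4 replicate 1 and 0.031 without spaQ replicate 2), TUB3 from -0.23 to -0.17, TUB6 from -0.27 to -0.17 and TUB9, not called in any setting, from -0.128 (without cop1-4 replicate 1) to -0.0050 (without cop1-4 replicate 2). Members called lower by at least 2-fold there numbered 0 with DESeq2 size factors and with DESeq2, and 0 to 1 with each library left out. Members called lower there ranged from 3 to 6, related genes called higher from 3 to 6 (3 without spaQ replicate 2) and lower from 9 to 15 (9 without spaQ replicate 3), and related genes called higher in cop1-4 from 2 to 4 (4 without Col-0 replicate 1). The cause was not tested. Deviations of libraries with the same replicate number had correlations of -0.15 to 0.16. Between different numbers the highest was 0.28, for cop1-4 and Col-0. With 3 libraries a genotype these values do not settle whether the numbers pair libraries. The replicate block changed no other call of a member.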
